A study of Mus musculus with 8 samples.

Results

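Control mouse liver on day 2 of the TCPOBOP experiment was compared with control mouse liver on day 0, over every gene that the array measured. The comparison used 2 of the 8 arrays of the study, namely the control day 2 and the control day 0 array, each hybridised with RNA of pooled livers. Both control groups were littermates with the genotype METfl/fl: TamCre+/+ (the strain label reads Metff/ff:ERCre+/+), a tamoxifen-inducible Cre with a floxed Met gene. They received corn oil and no tamoxifen, so Met was not deleted by design, and they received no canertinib. TCPOBOP, prepared in corn oil from a stock in DMSO, was given by gavage in a single dose (3 mg/kg), with livers collected at 0, 1, 2 and 5 days. The other arm, labelled MET KO + EGFRi, carried the same alleles, received 5 daily injections of 100 µl tamoxifen at 10 mg/ml in corn oil for a systemic Met deletion, and ate canertinib, an EGFR inhibitor, from the day before TCPOBOP with an aim of 80 mg/kg/day. The labels do not give the age or sex of the mice, the number of livers in a pool, or whether the day 0 livers were taken just before or just after dosing.

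TCPOBOP is a potent agonist of the mouse constitutive androstane receptor (CAR, gene Nr1i3), a nuclear receptor of hepatocytes that switches on enzymes and transporters which oxidise, conjugate and export foreign compounds and steroids. In mice it is also a direct mitogen: hepatocytes leave quiescence and the liver enlarges without prior injury. MET, the hepatocyte growth factor receptor, and EGFR are the main growth factor receptors of the hepatocyte, and the control livers keep both. A cell that enters the cycle first copies its DNA and then expresses the cyclins, kinases and spindle proteins of mitosis, whose promoters carry a characteristic pair of short elements, the CHR (cell cycle genes homology region) and the CCAAT box.

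Signal values were linear MAS5 values, which the deposited table scales to a common mean on each array. Differences below are log2 values of day 2 minus day 0 after 71 signal units were added to each value, so that 1 is a doubling; this understates ratios of dim genes. With 1 pooled array a day, no test of control day 2 against control day 0 exists, and no replicate spread stands beside these differences. Genes are therefore described as at least 2-fold higher or lower. Of 18193 genes with a probe set, 12112 passed the filter on mean signal over all 8 arrays, the 2 compared ones included. Of these, 313 (2.58%) were at least 2-fold higher on day 2 and 331 (2.73%) were at least 2-fold lower. Those shares are the background for every count of set members below. At least 4-fold differences were found for 45 higher and 28 lower genes, and at least 8-fold ones for 8 higher genes and 0 lower genes. The median difference was -0.04, with quartiles of -0.32 and 0.23. When each array was centred on its own median the split became 429 higher and 232 lower, since that scaling moved the median of all genes by 0.12; quantile normalization gave 306 and 298.

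Several array properties limit small differences. The median signal was 250.6 on day 0 and 224.2 on day 2, the 3′ to 5′ ratio of the actin control probe sets was 1.58 and 1.87, and that of the Gapdh control probe sets was 0.871 and 0.881. The 9 hybridization control probe sets, added in fixed amounts, differed by a median of 0.33 (range -0.04 to 0.64). The 13 measured reference genes had a median of 0.30, and Actb read 9447 on day 0 and 13459 on day 2. Where a gene had several probe sets, they differed from each other by a median SD of 0.28. All kept probe sets had the same sign in 64 of the 105 higher genes with several (61.0%) and in 51 of 83 such lower genes (61.4%), against 2155 of 4377 genes in all (49.2%). The higher genes were also brighter, with a median of the higher of both signals of 1323, against 740 for the lower genes.

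**Figure D1:**
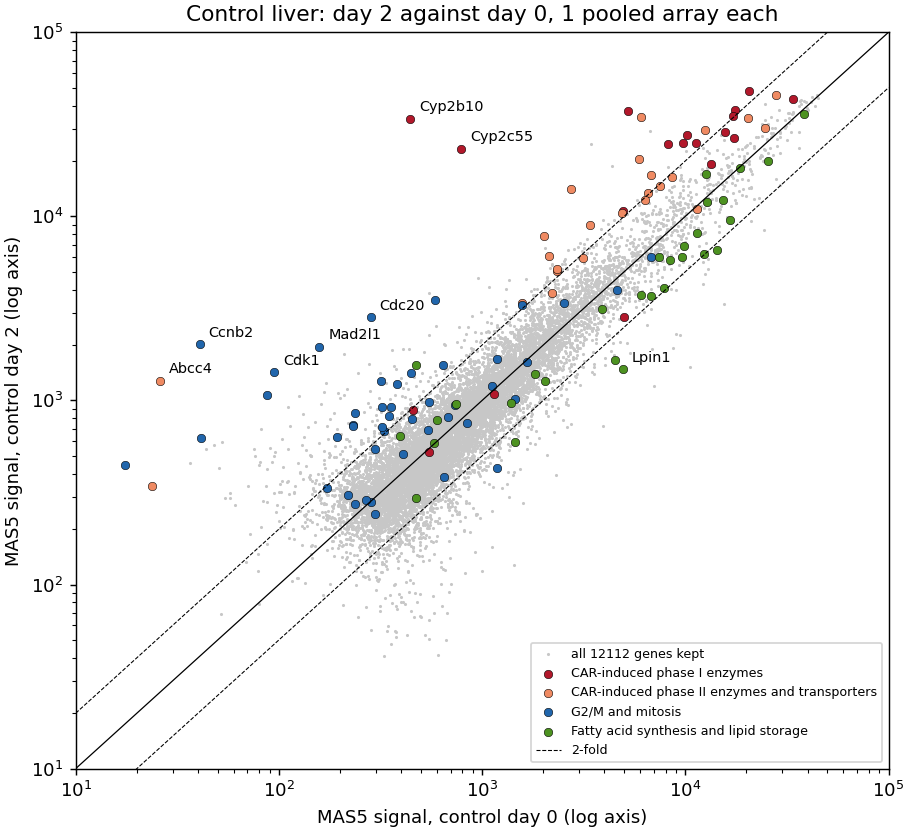
MAS5 signal of 12112 genes on control day 2 against control day 0, both on log axes, 1 pooled array each; the solid line marks equal signal and the dashed lines 2-fold. Cyp2b10 and Cyp2c55 stand far above the line at high signal, Ccnb2, Cdk1, Mad2l1 and Cdc20 above it at middle signal, and most genes of fatty acid synthesis lie below it.

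The enzymes that CAR is known to induce were bright and higher on day 2. Of 19 measured phase I enzymes, which oxidise or hydrolyse substrates, 11 were at least 2-fold higher, 0 were at least 2-fold lower, and the median was 1.11, against 2.58%, 2.73% and -0.04 over all genes. Cyp2b10, the classic CAR target, read 444, 38898, 33939 and 45578 on days 0, 1, 2 and 5; its day 2 signal was 76.4 times its day 0 signal, and its 3 kept probe sets gave differences of 6.05 to 7.36. Cyp2c55, another CAR-responsive cytochrome P450, read 788, 36847, 23337 and 33252 on days 0, 1, 2 and 5 (4.77 on day 2). Ces2a, a carboxylesterase that hydrolyses esters and amides, read 5230.1, 46618, 37523 and 59664 on days 0, 1, 2 and 5 (2.83). All 3 genes were low on day 0 relative to every later control array and had their lowest control signal after that on day 2.

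Further phase I genes were already abundant on day 0 and differed less. Cyp2c54 had signals of 8259 on day 0 and 24823 on day 2 (1.58). For Cyp2c50 the values were 20489.8 to 48165 (1.23), and for Cyp2c29 17518 to 37765 (1.11). These Cyp2c genes are close relatives, so their probe sets may share transcripts. Aldh1a7, an aldehyde dehydrogenase, went from 10175 to 27672 (1.44) and Cyp1a2, which oxidises caffeine and aromatic amines, from 9748 to 24935 (1.35). Cyp3a11, the main steroid hydroxylase of this family in mouse liver, was bright on both days, at 34017 on day 0 and 43551 on day 2 (0.36), and Cyp2c38 was lower, at 4973 on day 0 and 2855 on day 2 (-0.79).

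Conjugating enzymes and transporters showed the same direction. Of 24 measured phase II enzymes and transporters, 15 were past 2-fold in the higher direction and 0 in the lower, with a median of 1.08. Abcc4 (MRP4), an efflux pump for conjugates, read 26.1, 629, 1282 and 1384 on days 0, 1, 2 and 5 (3.80 on day 2). Gstm3, a glutathione transferase, read 6050.3, 40114, 34571 and 56624 on days 0, 1, 2 and 5, and Gstm2 read 2725 on day 0 and 14013 on day 2 (2.33). Sult1e1, the estrogen sulfotransferase, read 23.8, 337, 344 and 476 on days 0, 1, 2 and 5 in control. In the other arm it read 29.7, 1932, 26.5 and 3524 on those days, so only its day 2 array stayed at the day 0 level. The glucuronidation genes Ugt2b35 and Ugdh, which makes UDP-glucuronic acid, had differences of 1.78 and 1.30. The export pumps Abcc2 and Abcc3 had 1.48 and 1.12, and the uptake carrier Slco1a4 had 0.79. Under all 9 alternative settings the medians of both groups stayed above 0.

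Across the control days these groups had no day 2 maximum. The medians of phase I enzymes against day 0 were 1.17 on day 1, 1.11 on day 2 and 1.25 on day 5, and those of phase II enzymes and transporters 1.11, 1.08 and 1.09. These 3 comparisons share the day 0 array. Nr1i3 itself, which encodes CAR, read 3141, 2065, 1784 and 1887 on days 0, 1, 2 and 5 (-0.79 on day 2). Its relatives were mixed, with a median of -0.37 over 19 nuclear receptors and liver transcription factors. None of them was at least 2-fold lower by its brightest probe set, although another kept set of Rxra gave -1.21. Nr0b2 (SHP), a repressor of bile acid synthesis, was the exception above 2-fold, at 784 on day 0 and 1943 on day 2 (1.24).

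A day effect shared by both arms could be tested with limma on all 8 arrays, with terms for arm and day and 3 residual degrees of freedom. This tests the average of both arms and not the control arm alone. The test took its error from how the arms' difference varied between days, so a response that differed between arms raised that error. It called 7 genes higher (0.0578% of genes) and 0 genes lower (0%) at a Benjamini-Hochberg adjusted p under 0.05, against 526 higher and 407 lower at an unadjusted p under 0.05. Cyp2b10 rose by 6.14 (SE 0.18, limma adjusted p = 9.15e-06) and Cyp2c55 by 4.99 (SE 0.24, limma adjusted p = 1.95e-04). Ces2a rose by 3.31 (SE 0.27, limma adjusted p = 0.00576) and Gstm3 by 2.71 (SE 0.21, with the same limma adjusted p). Abcc4 rose by 3.25 (SE 0.33, limma adjusted p = 0.0242), the sulfotransferase Sult1c2 by 2.31 (limma adjusted p = 0.039), and the gene model 4931406C07Rik by 2.19 (limma adjusted p = 0.0401). Each was higher on day 2 in both arms. Cyp2b10 and Cyp2c55 passed with any array left out, whereas the count was 2 without the control day 2 array, without the MET KO + EGFRi day 0 array or without the MET KO + EGFRi day 2 array.

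Genes of mitosis supplied 5 of the 14 largest increases. Of 45 measured genes of G2 and mitosis, 21 were at least 2-fold higher on day 2, 1 was at least 2-fold lower and 36 were above 0, with a median of 0.76. The 2.58% of all genes past the same limit is the background for this count. Ccnb2, a mitotic cyclin, read 40.7, 424, 2030.4 and 269 on days 0, 1, 2 and 5 (4.23 on day 2). Cdk1, the kinase it activates to start mitosis, read 95, 784, 1421 and 317 on days 0, 1, 2 and 5 (3.17). Day 2 was the highest of the 4 control arrays for both genes, and day 0 the lowest. Ccnb2 passed the filter only with the control day 2 array in the mean, as did Ect2 and Smc2, described below. All of them are in the count of 21, and Ccnb2 and Ect2 are among the 5 mitotic genes of the largest increases.

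The sequences upstream of several of these genes are shown because the genes share short promoter elements. RefSeq promoters (build GRCm38.p6, 250 bases before to 50 after the start) were matched for 17 of the 21 higher genes. The 120 bases before the start site are printed 5′ to 3′ on the gene's strand, with capitals marking the CHR letters TTTGAA and the CCAAT box, on either strand (TTCAAA and ATTGG).
Cdk1 (chr10:69352913-69353032, minus strand): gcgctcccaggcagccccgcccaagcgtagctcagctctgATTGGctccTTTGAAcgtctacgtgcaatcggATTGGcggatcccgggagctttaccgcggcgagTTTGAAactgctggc
Cdc20 (chr4:118437344-118437463, minus strand): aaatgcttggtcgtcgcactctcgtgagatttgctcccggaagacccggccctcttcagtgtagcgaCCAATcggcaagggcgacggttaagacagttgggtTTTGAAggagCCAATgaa
Ect2 (chr3:27153879-27153998, minus strand): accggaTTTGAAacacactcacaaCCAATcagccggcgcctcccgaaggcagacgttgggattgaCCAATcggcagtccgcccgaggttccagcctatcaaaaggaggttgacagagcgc
Top2a (chr11:99024190-99024309, minus strand): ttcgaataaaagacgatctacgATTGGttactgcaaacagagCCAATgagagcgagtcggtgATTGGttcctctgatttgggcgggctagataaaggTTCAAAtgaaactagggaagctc
Mki67 (chr7:135716380-135716499, minus strand): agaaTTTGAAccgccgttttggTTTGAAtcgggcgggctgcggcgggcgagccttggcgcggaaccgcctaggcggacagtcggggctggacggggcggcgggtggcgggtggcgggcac
Kif22 (chr7:127042421-127042540, minus strand): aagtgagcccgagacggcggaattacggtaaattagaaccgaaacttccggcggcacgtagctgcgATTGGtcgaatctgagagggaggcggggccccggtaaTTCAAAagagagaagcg
Cdk1, Cdc20, Ect2, Top2a and Kif22 carry both elements in this stretch, and Mki67 carries TTTGAA in 2 places; they were chosen for print because they carry it. Of the other higher genes, Mad2l1, Nusap1 and Ncaph had neither element in the window, and H2az1 had CCAAT but no TTTGAA. Ccnb2, Smc2, Racgap1 and Cdca8 had CCAAT in the 120 bases but TTTGAA only outside them. The second listed promoter of Ect2 likewise has TTTGAA only outside its 120 bases, and in the first of Prc1 it runs past the start site. TTTGAA was found in 78.9% of the 19 promoters of the higher genes, in 56.5% of the 23 promoters of the other measured members, and in 17.9% of all 32851 promoters of this length. CCAAT was found in 84.2%, 78.3% and 37.4% of the same sets. The presence of these letters is a description of the sequence and not a measured binding site.

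Regulators of chromosome separation followed a like time course. Mad2l1, a spindle checkpoint protein, read 158, 530.5, 1963 and 188 on days 0, 1, 2 and 5 (3.15 on day 2). Cdc20, which activates the ubiquitin ligase that ends metaphase, read 283, 1469.9, 2840.5 and 816 on days 0, 1, 2 and 5; a further kept probe set gave 1.86, against 3.04 for the brightest. Ect2, which sets the site of cleavage, read 86.9, 501, 1076 and 344 on days 0, 1, 2 and 5 (2.86). In each of these genes day 2 was above day 1, and the day 5 signal was back under the day 1 signal.

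Other members of the mitotic set differed by less. The spindle protein Nusap1 read 41.6 on day 0 and 624 on day 2, and the condensin subunits Smc2 and Smc4 had differences of 2.55 and 1.51. Smc2 read only 17.4 on day 0. The other probe sets of Smc2 and Nusap1 lay below the filter and gave -1.03 to 0.07 and -0.04. H2az1, a histone variant, read 586, 1439.6, 3496 and 664 on days 0, 1, 2 and 5. Kif22 and Prc1, which work on the spindle, had differences of 1.58 and 1.41. Topoisomerase Top2a read 231, 488, 724 and 441 on days 0, 1, 2 and 5 and the proliferation marker Mki67 read 192, 447, 636 and 297 on days 0, 1, 2 and 5, so both were also highest on day 2. Foxm1, the transcription factor of many mitotic genes, differed by 0.09, and Cenpa, the centromere histone, was the member at least 2-fold lower, at 1188 on day 0 and 428 on day 2 (-1.33).

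A further 20 listed mitotic genes lay below the filter on mean signal, and 8 of them were at least 2-fold higher. Birc5 (survivin), for example, read 68.8 on day 0 and 1531 on day 2, and the kinetochore gene Nuf2 read 24.9 on day 0 and 476 on day 2. With a filter at the upper quartile of mean signal, which leaves 16 members, the median of the mitotic set was 0.29. Without probe sets that may match several transcripts it was 0.38, over 33 members.

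**Figure D2:**
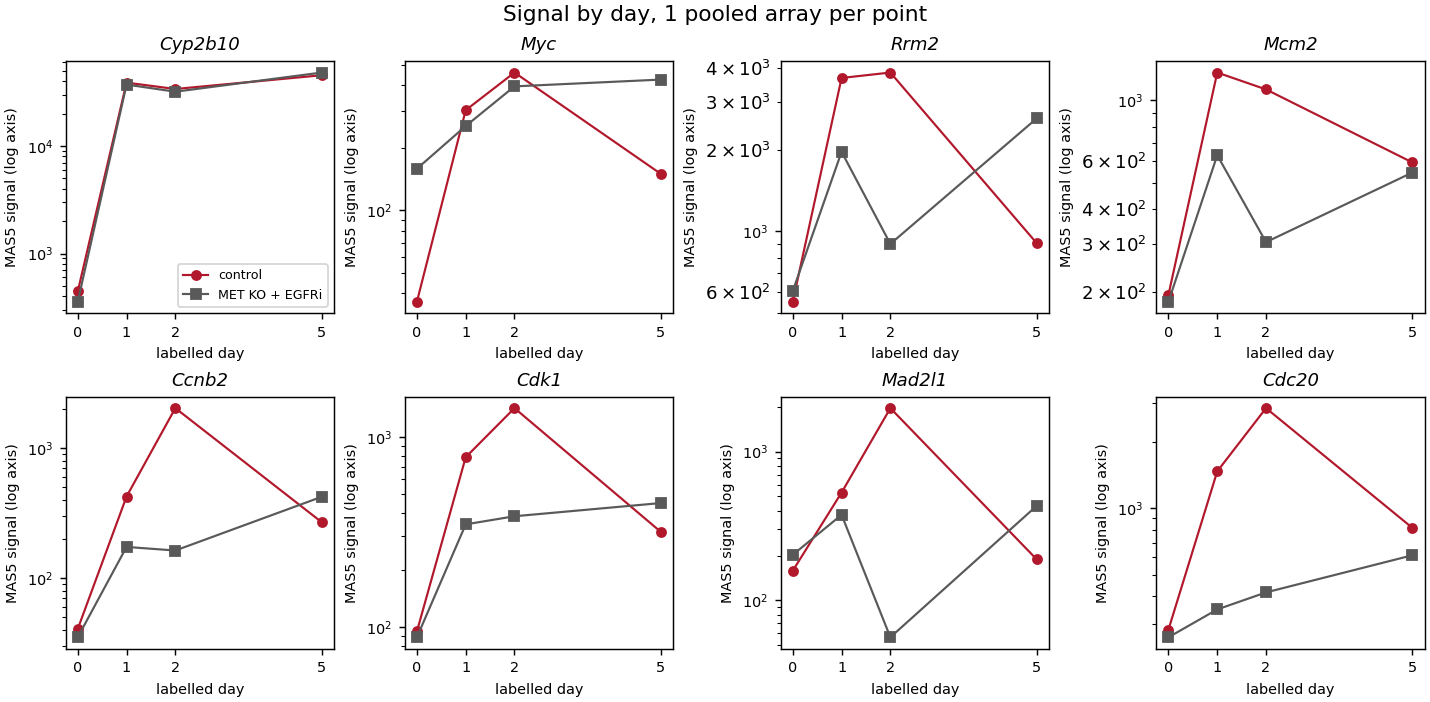
MAS5 signal on a log axis against the labelled day for 8 genes, 1 pooled array per point, circles for control and squares for MET KO + EGFRi. Ccnb2, Cdk1, Mad2l1 and Cdc20 had their highest control signal on day 2, Mcm2 on day 1, and Cyp2b10 stayed high from day 1 on in both arms.

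Genes of DNA replication were higher too, but most were highest a day earlier. Of 29 measured genes, 2 were at least 2-fold higher (6.90%, against 2.58% of all genes) and 0 were at least 2-fold lower. Above 0 were 24 of them (5520 of 12112 over all genes). The median was 0.48, against 0.58 on day 1 and 0.12 on day 5. Rrm2, the ribonucleotide reductase subunit that limits dNTP supply, read 551, 3684, 3857 and 905 on days 0, 1, 2 and 5 (2.66 on day 2), and its 3 kept probe sets gave 1.38 to 2.66. Mcm2, part of the replicative helicase, read 195, 1261, 1094 and 593 on days 0, 1, 2 and 5, and Pcna, the sliding clamp, read 1509, 3359.5, 2774 and 1157 on days 0, 1, 2 and 5. Mcm7, Mcm4 and Rpa1 had differences of 0.97, 0.96 and 0.96, just inside 2-fold, and Mcm3 had 0.24.

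The day of the highest control signal separated these sets from each other. Of the 29 replication genes, 15 were highest on day 1 and 8 on day 2. Of the 45 mitotic genes, 7 were highest on day 1 and 26 on day 2. Those 26 include Ccnb2, Ect2 and Smc2, which passed the filter only with the control day 2 array in the mean. Over all genes the counts were 2310 on day 1 and 2644 on day 2, out of 12112. In the 29 matched promoters of replication genes the E2F-type letters TTTGGCGC were found in 17.2%, TTTCGCGC in 17.2% and TTCCCGCC in 13.8%, against 0.514%, 0.323% and 2.19% of all promoters. All were searched on both strands, and none was in the windows of Rrm2 or Mcm2.

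**Figure D3:**
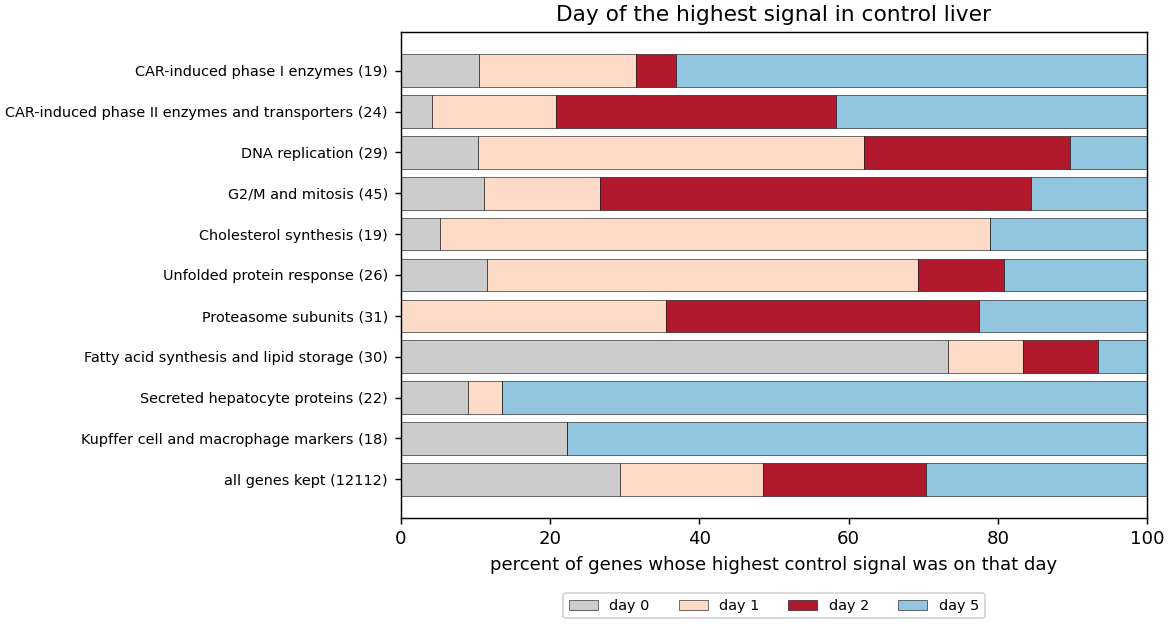
Percent of the genes of each set whose highest control signal fell on day 0, 1, 2 or 5, with the number of genes in brackets. Day 2 holds 26 of 45 mitotic genes, day 1 holds 15 of 29 replication genes and 14 of 19 cholesterol synthesis genes, and day 0 holds 22 of 30 fatty acid synthesis genes.

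Regulators of the entry into the cycle were mixed. Of 18 measured G1/S regulators, 2 were at least 2-fold higher (11.1%, against 2.58% of all genes) and the median was 0.11. Myc, a growth-promoting transcription factor, read 36.4, 303, 459.9 and 149.8 on days 0, 1, 2 and 5 (2.31). Like Ccnb2, Ect2 and Smc2, it passed the filter only with the control day 2 array in the mean. E2f8, an E2F family repressor, read 79.4, 631, 445 and 394 on days 0, 1, 2 and 5. Ccnd1 (cyclin D1), which couples growth signals to the cycle, was bright on all days at 4553, 6318, 6381 and 5647 on days 0, 1, 2 and 5; its 3 kept probe sets gave 0.14 to 0.85. Of 18 CDK inhibitors and p53 targets, 4 were at least 2-fold higher (22.2%, against 2.58% of all genes). Gadd45b, a stress sensor known as an early TCPOBOP target, read 262, 1006, 2255 and 2126 on days 0, 1, 2 and 5, although another of its probe sets gave -0.60. Gadd45a, its relative, read 174 on day 0 and 621 on day 2, the cell cycle inhibitors Cdkn1b and Cdkn2d had 1.30 and 1.12, and Cdkn1a (p21) had 0.11. The other Cdkn1a probe set lay below the filter and gave 1.08, at 49.8 on day 0 and 184 on day 2. That of Cdkn1b, also below the filter, gave -0.29.

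Growth factor receptors and their ligands had a median slightly below that of all genes. Of 15 measured genes, 12 were below 0 (6588 of 12112 over all genes), with a median of -0.24. Erbb3, an EGFR partner receptor, was at least 2-fold higher, at 2086, 4251, 4711 and 4761 on days 0, 1, 2 and 5, but had 0.53 as the mean of its probe sets. Hgfac, the protease that activates HGF, was at least 2-fold lower at 8473 on day 0 and 4007 on day 2 (-1.07), and Hgf had -0.67. The other Hgf probe sets lay below the filter and gave 0.11 and 0.16. Errfi1, a feedback inhibitor of EGFR, read 22992, 19679, 12621 and 8104 on days 0, 1, 2 and 5, with each array below the one before. The brightest Met probe set read 1444 on day 0 and 1336 on day 2 (-0.11) and a dimmer set gave -0.99. The brightest Egfr set had 0.21, whereas its 5 other kept sets gave -1.44 to -0.09, so the probe sets of these receptors disagree in size or sign. ERK response genes, which report signalling below both receptors, had a median of -0.13 with 0 of 19 past 2-fold in either direction.

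Lipid synthesis split into its branches. Of 30 measured genes of fatty acid synthesis and lipid storage, 24 were below 0 (6588 of 12112 over all genes), with a median of -0.48. At least 2-fold lower were 4 (13.3%, against 2.73% of all genes), and 1 was at least 2-fold higher (3.33%, against 2.58%). Lpin1, a phosphatidate phosphatase of triglyceride synthesis, read 4916, 1630.4, 1477 and 1097 on days 0, 1, 2 and 5. Acly, which makes cytosolic acetyl-CoA, read 14252 on day 0 and 6559 on day 2 (-1.11, with the same sign in its 4 kept probe sets and -0.84 as the mean of all its sets). Fasn, fatty acid synthase, read 12335 on day 0 and 6221 on day 2 (-0.98), and Srebf1, the transcription factor of this pathway, had -0.94. The fatty acid carrier Fabp5 and the lipid droplet protein Plin5 had -1.40 and -1.19; another kept Plin5 set gave -0.07. Elovl3, which lengthens fatty acids, was the member above 2-fold, at 471 on day 0 and 1567 on day 2 (1.60).

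Genes of cholesterol synthesis leaned the other way. Of 19 measured genes, 16 were above 0 (5520 of 12112 over all genes) and 0 were past 2-fold. The median was 0.33 on day 2, 0.72 on day 1 and 0.44 on day 5. This day 2 median is close to that of the reference genes (0.30) and of the hybridization controls (0.33). Hmgcs1, an early enzyme of the pathway, read 8797, 24242, 14679.7 and 21571 on days 0, 1, 2 and 5, and Msmo1, a sterol methyl oxidase, read 4203, 12234, 7993 and 8968 on days 0, 1, 2 and 5. Cyp51, the lanosterol demethylase, read 1682, 5095, 3325 and 3131 on days 0, 1, 2 and 5, so day 1 was the highest array in all 3. In the other arm the median of the set was -0.60 on day 2 against its own day 0, with 2597 and 924 for Cyp51. The sterol response letters TCACNCCAC were found in 5.56% of the 18 matched promoters of the set, against 1.24% of all promoters.

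Bile acid genes had a median of 0.05 over 18 members. Cyp8b1, which sets the share of cholic acid, read 2205 on day 0 and 5457 on day 2 (1.28), Cyp7a1, the rate-limiting enzyme, 5047 on day 0 and 3508 on day 2 (-0.52), and Slco1a1, an uptake carrier, 1421 on day 0 and 393 on day 2 (-1.68). Among genes of serine, one-carbon and nucleotide synthesis, Gldc, the glycine decarboxylase, had 1.68, Dhodh, of pyrimidine synthesis, had -1.51, and Phgdh, of serine synthesis, had -1.42. Phgdh read 2641, 3751, 944 and 5218 on days 0, 1, 2 and 5; its other kept set gave -0.27 and was lowest on day 5, and the mean of all its sets was -0.42. Pericentral genes, those of the hepatocytes around the central vein, had a median of -0.13. Oat, which breaks down ornithine, and Slc1a2, a glutamate carrier, had -1.09 and -1.54, whereas Cyp1a2 had 1.35 and Lect2 0.99. Of the 16 measured pericentral genes, 5 were above 0 and 11 below. Periportal and urea cycle genes had a median of -0.09 and none past 2-fold.

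Genes of glucose production and fatty acid oxidation gave no common direction past 2-fold. The 25 genes of glucose production and amino acid catabolism had a median of -0.12. G6pc, the last enzyme of glucose output, read 9579, 6499.5, 4866 and 4976 on days 0, 1, 2 and 5, and Pcx, pyruvate carboxylase, read 6429, 3799.6, 3474 and 4072 on days 0, 1, 2 and 5; both were highest on day 0. Ddc, which decarboxylates aromatic amino acids, read 584 on day 0 and 1436 on day 2 with its brighter probe set, whereas the other kept set gave -0.56 and the mean of both was 0.32. The 28 genes of fatty acid oxidation and PPARA response had a median of -0.07. Cyp4a14, a fatty acid hydroxylase, read 12919, 4606, 5838 and 4244 on days 0, 1, 2 and 5, Acot3, a peroxisomal thioesterase, read 6269.9, 516, 3024 and 1175 on days 0, 1, 2 and 5, and Vnn1, a pantetheinase, was higher at 3143 on day 0 and 6368 on day 2 (1.00). Clock genes had a median of -0.13, with Clock itself at 102, 324, 351 and 507 on days 0, 1, 2 and 5. Clock lay close to the filter and passed it only with the control day 2 array in the mean. The hour of collection is not given in the labels.

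Antioxidant, proteasome and unfolded protein response genes had medians above that of all genes, and heat shock genes did not go one way. Of 17 measured NRF2 targets, the antioxidant response set, 6 were past 2-fold upward and 0 downward, with a median of 0.54; Osgin1 and Nqo1, a quinone reductase, had 1.47 and 1.22, and Gsr, glutathione reductase, read 1102 on day 0 and 2619 on day 2. Several genes of this set are also on the CAR lists. Of 31 proteasome subunits, 30 were above 0 (5520 of 12112 over all genes) and 2 at least 2-fold higher, with a median of 0.53; Psmc4 read 992 on day 0 and 2314 on day 2 (1.17, and 0.90 as the mean of its probe sets). Of 26 unfolded protein response genes, 2 were at least 2-fold higher and the median was 0.33, no higher than that of the hybridization controls, with 0.62 on day 1. Hspa5 (BiP), the main chaperone of the endoplasmic reticulum, read 4994, 11340.5, 10146 and 11538 on days 0, 1, 2 and 5. The 16 measured heat shock genes had a median of 0.03, with 8 above and 8 below 0 and -0.05 under quantile normalization. Hspa1b read 2389, 1732, 4874 and 1359 on days 0, 1, 2 and 5, with 0.74 as the mean of its probe sets, and Hsph1, another chaperone, had -0.58. Genes of the respiratory chain (31 measured) and of ribosome biogenesis (31 measured) had 0 members past 2-fold, with medians of -0.001 and 0.09.

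**Figure D4:**
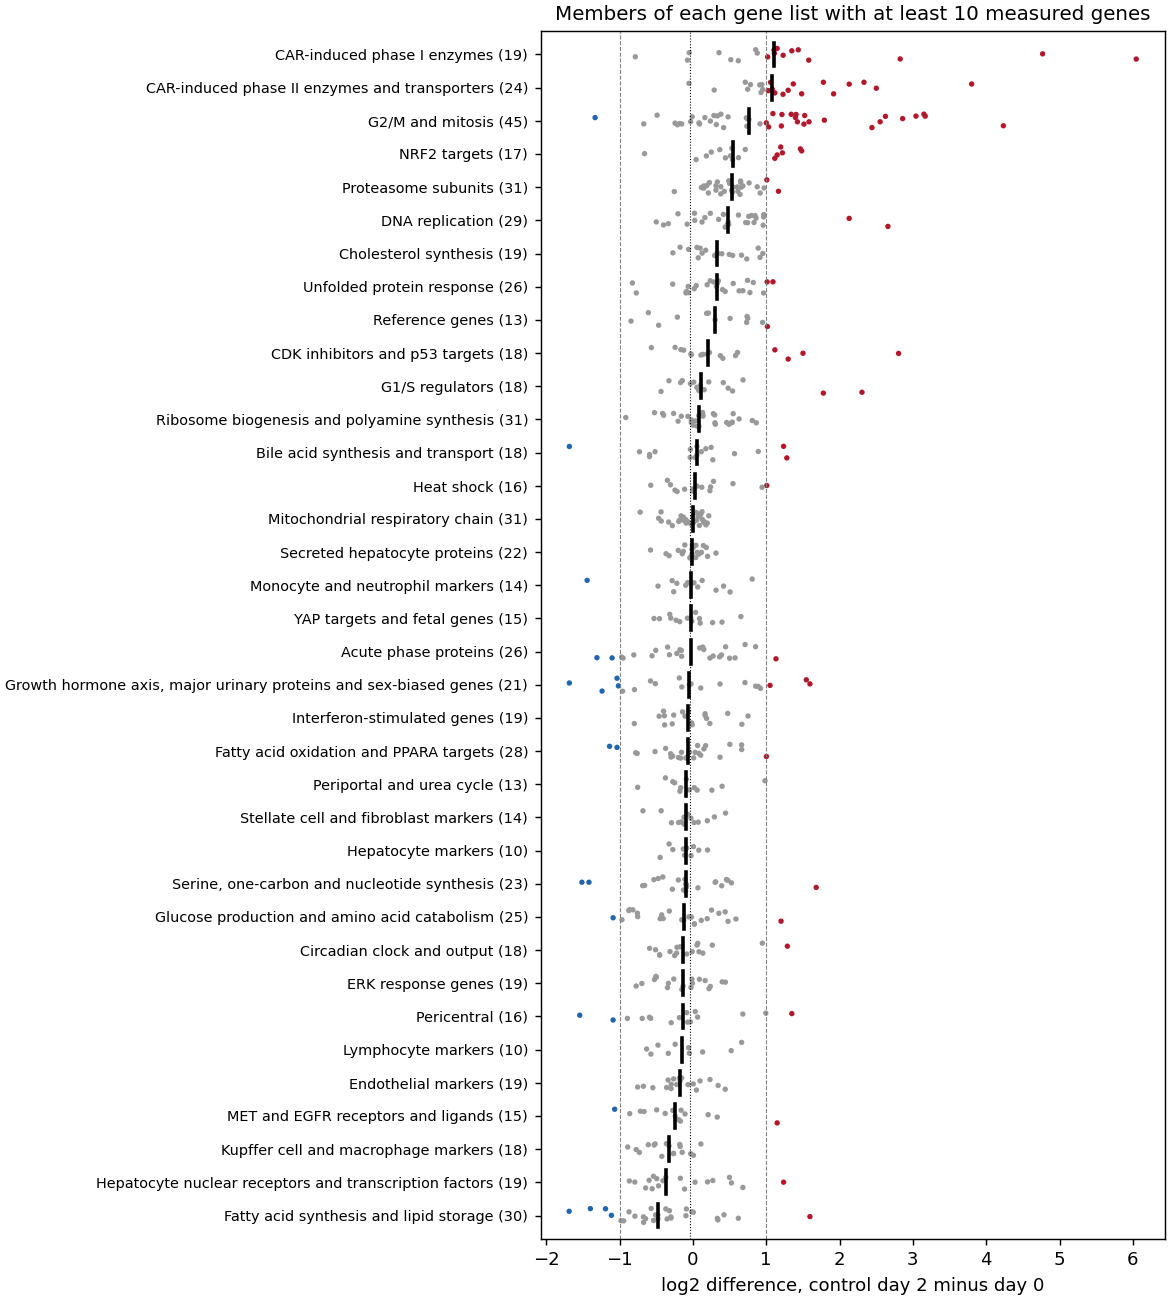
Log2 difference of control day 2 minus day 0 for every measured member of each set with at least 10 measured genes, number in brackets; black bars are medians, the dotted line is the median of all genes, and red and blue points lie past 2-fold. CAR-induced enzymes, mitosis, NRF2 targets, proteasome and DNA replication have the highest medians and fatty acid synthesis the lowest.

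The brightest probe sets of hepatocyte markers differed little. The 10 markers had a median of -0.10 and none past 2-fold, Alb read 37254 on day 0 and 42800.0 on day 2, and the 22 secreted proteins had a median of -0.01. These bright markers fit the label of liver. For Hnf4a the brightest set gave -0.11, whereas its other kept sets gave -1.23, -0.90 and -0.17 and the mean of its sets was -0.61. Acute phase proteins had a median of -0.03, with Serpina3n at 4460.0 on day 0 and 1758 on day 2 (-1.31), Saa2 at -1.10 and Orm3 at 1.13. Genes that depend on growth hormone or sex went both ways, with Cyp2d9 at 1.55, Mup10 at 1.05, the IGF-binding subunit Igfals at -1.24 and Cux2, a female-biased factor, at -1.02. Another kept Cux2 set gave 0.25, and the mean of all its sets was -0.84.

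Markers of other cell types were mostly lower or near the median of all genes. Kupffer cell and macrophage markers were below 0 in 16 of 18 genes, with a median of -0.33 and none past 2-fold; over all genes 6588 of 12112 were below 0. Adgre1 (F4/80) and Clec4f, which mark these cells, read 1658 on day 0 and 1457 on day 2, and 2129 on day 0 and 1879.6 on day 2. The summed signal of the set was 37454, 22982, 30822 and 51087 on control days 0, 1, 2 and 5. Mpeg1, a macrophage pore protein, had -0.89 and the complement gene C1qc -0.77. Endothelial, stellate and lymphocyte markers had medians of -0.18, -0.10 and -0.15. Monocyte and neutrophil markers had a median of -0.03 and a summed signal of 8182 on day 0 and 8259.7 on day 2. Of 14 measured, 7 were above 0 and 7 below. Ccr2, at 508 on day 0 and 142 on day 2, was the only member past 2-fold, whereas Elane and S100a9 had 0.81 and 0.51. Ccr2 passed the filter only with the control day 0 array in the mean. Its other probe sets lay below the filter and gave -1.15 to -0.33, and with a pseudocount at the median signal it had -0.97. All 3 measured erythroid markers were lower, Alas2 at 1659 on day 0 and 547 on day 2 and Hbb-b2 at 841 on day 0 and 361 on day 2. The 4 measured cholangiocyte markers had a median of 0.04: Epcam read 592 on day 0 and 1374 on day 2, whereas Aqp1, Sox9 and Cldn4 had -0.23, -0.01 and 0.09. The Epcam value came from a probe set that may match several transcripts. Its other set lay below the filter and gave 0.14, at 33.1 on day 0 and 44.1 on day 2. In pooled bulk tissue, fewer cells of a type and less RNA per cell cannot be told apart, and the part of these cell types in the mitotic signal was not tested.

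Outside the sets, the 14 largest increases included Smpd2, a neutral sphingomyelinase (123 on day 0 and 1732 on day 2), Ccl9, a chemokine (3415 on day 0 and 24564 on day 2, with the same sign in both kept probe sets) and A2ml1, a protease inhibitor related to alpha-2-macroglobulin (209.6 on day 0 and 1784 on day 2). The other 11 were CAR targets, cell cycle genes and Gadd45b, all described above. None of the 14 largest decreases was on a list. Fank1 read 1434 on day 0 and 127 on day 2, Rab3a, a vesicle GTPase, 10518 on day 0 and 1514 on day 2, and Nrip2 662 on day 0 and 50 on day 2. Lrg1, a secreted acute phase glycoprotein, read 7019.6 on day 0 and 1196 on day 2, Ggt5, a glutathione-cleaving enzyme, 2307 on day 0 and 392 on day 2, and Rdh9, a retinol dehydrogenase, 3954 on day 0 and 727 on day 2. Naalad2, a peptidase, read 669.8 on day 0 and 69.8 on day 2. Cacna2d4, Omp, Pou5f2, Ptprcap, Clic6, Wfdc1 and Sox14 completed the set. Several of these rest on a single choice of probe set: Fank1 had -0.96 as the mean of its sets, Ggt5 had -0.26 and Naalad2 0.35 without probe sets that may match several transcripts. Rab3a was read from a set of that kind. Its other set, below the filter, gave 0.22, at 48.9 on day 0 and 68.7 on day 2. The other Omp set, also below the filter, gave 0.49. Naalad2 passed the filter only with the control day 0 array in the mean.

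Among genes bright enough for the top decile of either array, a naming rule chosen after the data were seen, the lower genes included secreted proteins and enzymes of hepatocytes. Hamp2, a hepcidin, read 15567, 3745, 3345 and 5266 on days 0, 1, 2 and 5. Cyp4f14, a fatty acid hydroxylase, read 9442, 5315, 2267 and 2964 on days 0, 1, 2 and 5. Rdh16f2 and Hsd17b6, which act on retinol and steroids, read 8712 on day 0 and 1922 on day 2 and 9038 on day 0 and 2295 on day 2. Ak4, a mitochondrial adenylate kinase, read 6876 on day 0 and 1913 on day 2, with -0.58 as the mean of its probe sets.

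In the MET KO + EGFRi arm, the same comparison of day 2 with day 0 placed 258 genes (2.13%) past 2-fold upward and 253 genes (2.09%) past 2-fold downward. The arms share no array. Of the higher genes, 61 were common to both, which is 19.5% of the control list and 23.6% of the other. Of the lower genes, 28 were common, which is 8.46% and 11.1%. Another 14 genes passed 2-fold upward in control and downward in the other arm, and 20 the reverse. Across all genes, which are not independent replicates, the Pearson correlation of both differences was 0.11, and 0.30 over the genes past 2-fold in control.

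The sets differed in how far the arms ran together. CAR-induced phase I enzymes had medians of 1.11 in control and 1.36 in the other arm, and phase II enzymes and transporters 1.08 and 1.02. The mitotic set had 0.76 and 0.23, with 21 and 6 members at least 2-fold higher, and DNA replication had 0.48 and 0.14. In the other arm on days 0 and 2, Ccnb2 read 35.1 and 163, Cdk1 88.5 and 383, Cdc20 261 and 416 and Mad2l1 202 and 56.4, while Cyp2b10 read 356 and 32027. On day 5 of that arm Ccnb2 read 422 and Mad2l1 432. Proteasome subunits had 0.53 and 0.07, and interferon-stimulated genes -0.06 and -0.99. With 1 array a group, none of these differences between arms was tested.

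The day 0 arrays of the arms were not alike. Summed acute phase signal was 228500.0 in control and 617393 in the other arm, that of monocyte and neutrophil markers was 8182 and 48718, and that of interferon-stimulated genes was 20403 and 42334. The part of these starting levels in the difference between arms was not tested.

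**Figure D5:**
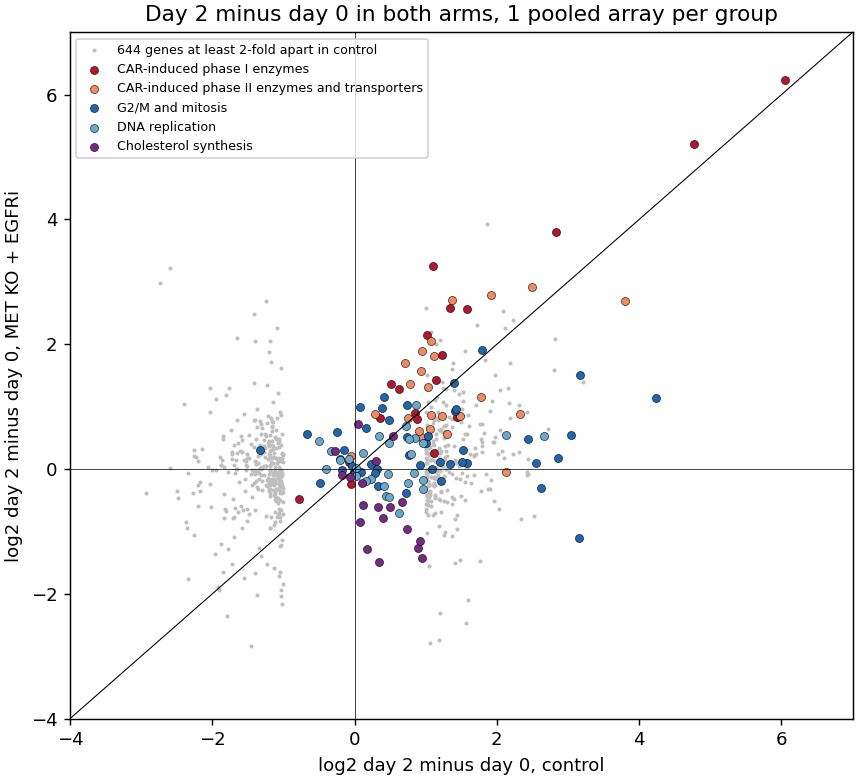
Log2 difference of day 2 minus day 0 in MET KO + EGFRi against that in control, for 644 genes past 2-fold in control (grey) and 5 gene sets; the diagonal marks equal differences. The control difference was the larger in 4 of 19 phase I enzymes, 30 of 45 mitotic genes and 16 of 19 cholesterol synthesis genes, which lie below the diagonal.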

How the data were processed

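Mouse liver RNA was hybridised to 8 Affymetrix arrays, 1 for each of 8 groups (2 arms, 4 days), from 6 µg total RNA of pooled livers, per the labels' protocols. The deposited values are MAS5 signals on a linear scale, per the submitters' processing notes; they come from scanned probe intensities, which the authors summarised per probe set before depositing them, and each array's mean after trimming 2% at both ends was 500. Of 45101 probe sets, 64 were controls, 34945 had 1 gene symbol in the platform annotation, 932 had several and 9160 were not listed; only those with 1 were named.

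Each gene was represented by its probe set with the highest mean. A pseudocount of 71 (the lower quartile of all signals) was added before log2. Genes with a mean log2 value over all 8 arrays under 8.24 (the median of probe sets) were left out. Differences of 2-fold or more were counted. limma 3.58.1 in R 4.3.3 was run as described and tested on simulated data. Gene sets (39 lists) and members were chosen with earlier results of these data known. Named genes are the 14 largest increases and 14 largest decreases whose higher signal reached the array's upper quartile, unnamed gene models skipped, up to 8 members of each list by size of difference, and fixed genes (the receptors Met and Egfr with Hgf; Cyp2b10 and Nr1i3; the cycle genes Cdk1, Ccnd1, Mcm2, Mki67, Pcna, Foxm1, Cdkn1a and Myc; Actb, Alb and Gapdh, the last below the filter); the 12 largest among top-decile genes, and other members of described lists, were added after the data were seen. Promoters came from RefSeq. Alternatives covered the pseudocount, the filter, the choice of probe set and the scaling. The number of arrays limits the precision. The limma p-values measure against the spread of the arms' difference between days, since no group has a replicate pool. A response that differs between arms counts as error there.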

Additional observations from a re-analysis of the deposited data

Results flagged for a closer look

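In 6 named genes the control arm and the MET KO + EGFRi arm were past 2-fold in opposite directions on day 2 against day 0; each rests on 1 pooled array a group, and the difference was not tested. The log2 differences in control and in the other arm were 3.15 and -1.10 for Mad2l1, -2.74 and 2.98 for Rab3a, and -2.60 and 3.22 for Nrip2. They were -2.40 and 1.04 for Naalad2, -1.94 and 1.13 for Hsd17b6, and -1.81 and 1.18 for Ak4. The Rab3a and Naalad2 values come from probe sets that may match several transcripts.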

How the results depend on the processing

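No paired analysis was possible because each group has 1 array and the labels carry no replicate numbers. Of 2672 values of named genes under the alternatives, 2513 moved by less than the typical SD between probe sets of a gene (0.28), 158 moved more and 1, past 2-fold in the main setting, reversed (Naalad2, 0.35 without probe sets ending in _s_at, _x_at or _a_at); the same limit was passed by 4 of 360 set medians, the median of all genes included. The median of 16 of the 39 sets had the other sign under at least 1 alternative (31 of 351 values); the farthest of these lay 0.10 from 0 in the main setting, and they include acute phase, monocyte and neutrophil, cholangiocyte, bile acid, heat shock, hepatocyte and secreted protein genes. The count of genes at least 2-fold higher, 313, was 189 with a pseudocount at the median signal, 544 with no filter, 193 with a filter at the upper quartile and 190 as the mean over probe sets. The count at least 2-fold lower, 331, was 503 with no pseudocount, 148, 722, 142 and 202 under the same alternatives in that order, and 514 with a filter on the 6 arrays not compared. Genes higher in both arms numbered 61, and 40 with the larger pseudocount; genes lower in both numbered 28, and 14 with that pseudocount, 59 with no filter, 12 with the stricter filter and 18 as the mean over probe sets. limma called 7 genes higher, and 4 with no pseudocount, 2 with no filter and 14 with the stricter filter; with 1 array left out the count ran from 2 to 7. It called 0 lower, and 2 with the stricter filter and 1 without probe sets ending in _s_at, _x_at or _a_at, and 0 with any array left out. A filter changes how many genes are tested; for the other alternatives the cause was not tested. The median of the higher of both signals was 740 in the lower genes and 799 in all genes, and 1 pool a day gives no error over animals.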
